A study of Rattus norvegicus with 36 samples.

Results

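The 4 neuropeptide genes of striatal projection neurons described here are Penk (ENSRNOG00000008943), Pdyn (ENSRNOG00000026036), Tac1 (ENSRNOG00000007374) and Cartpt (ENSRNOG00000017712). They were taken by their Ensembl gene IDs from the 31546 IDs counted in the nucleus accumbens of 9 rats, whatever their values, and all 4 passed the filter on low counts. Each of 3 groups held 3 Sprague-Dawley rats aged 8 weeks, and each rat had 4 technical replicate libraries. By their labels, Vulnerable and Non Vulnerable rats had received 4 injections of cocaine (20 mg/kg, intraperitoneal) in a conditioned place preference schedule. The protocol describes saline and cocaine sessions in turn, of 20 min each in alternate compartments and 6 h apart. Saline rats had received 4 injections of physiological serum and gone through the same alternation of compartments. Preference was tested on the day after the last session, and the series set rats that expressed the preference against rats that did not and against saline rats. Whether the rats labelled Vulnerable are those that expressed it is not stated in any sample label, and the groups keep their phenotype labels here. The samples are labelled as nucleus accumbens, but RNA extraction is described for the caudate putamen too, so a contribution of dorsal striatum is unknown.

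The accumbens and the rest of the striatum consist mostly of GABA-releasing projection neurons, which are divided by their dopamine receptor and by the peptides they make. Neurons with the D1 receptor (the direct pathway of the dorsal striatum) make dynorphins from Pdyn and the tachykinins substance P and neurokinin A from Tac1. Neurons with the D2 receptor (the indirect pathway) make enkephalins from Penk. Enkephalins act mainly on delta and mu opioid receptors and dynorphins on kappa receptors, while substance P acts on the neurokinin receptor Tacr1. Cartpt encodes the precursor of the CART peptides, named for a transcript regulated by cocaine and amphetamine, and it is made by a subset of accumbens neurons. Transcription of peptide genes in striatal neurons is known to respond to dopamine signalling through cyclic AMP and the factor CREB, which binds the cAMP response element.

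Sequence before the listed start site was taken from the RefSeq promoter table of rat assembly GRCr8 for the 3 genes with an entry. It is shown because the 4 transcripts varied together between rats, as described further on. Whether the sequence bears on that variation was not tested. The 250 bases before each start were searched on both strands for 6 motifs, and stretches with a selection of the matches are printed 5′ to 3′ on the gene's strand, with the selected matches in capitals. The Pdyn window lies just outside the gene as the RefSeq gene table gives it. The starts listed for Tac1 and Cartpt lie inside the span of the gene in that table, so the stretches printed for them are within the annotated gene, and upstream here means only relative to the listed start. For Pdyn the whole window is shown, with a CCAAT box on the opposite strand (read here as ATTGG) and a TATA box (TATAAA). For Tac1 the capitals are CGTCA, the core of the cAMP response element, and the E-box CACGTG. For Cartpt they are the full palindromic element TGACGTCA.
Pdyn, chr3:137366504-137366753, minus strand: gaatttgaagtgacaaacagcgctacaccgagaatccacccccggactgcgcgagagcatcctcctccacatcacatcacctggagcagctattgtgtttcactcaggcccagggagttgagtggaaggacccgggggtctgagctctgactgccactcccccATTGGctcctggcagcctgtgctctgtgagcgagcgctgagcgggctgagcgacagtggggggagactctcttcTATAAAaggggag
Tac1, chr4:36645365-36645394, plus strand: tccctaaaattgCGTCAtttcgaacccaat
Tac1, chr4:36645499-36645528, plus strand: tggggagagtgtCACGTGgctctccaggct
Cartpt, chr2:32991359-32991388, minus strand: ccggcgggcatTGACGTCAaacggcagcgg

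The TGACGTCA of Cartpt began 142 bases upstream of the listed start, within the annotated gene, and 1.59% of all 33469 promoter windows of the same length held this motif. The shorter CGTCA of Tac1 began 206 bases upstream and is common, being present in 18.2% of windows. The 2 CGTCA matches of Cartpt lie within its palindrome and are not further sites. The TATA box of Pdyn began 13 bases upstream (12.9% of windows), and its CCAAT match lay 87 bases upstream (34% of windows). CACGTG of Tac1 began 72 bases upstream (5.59% of windows), and Tac1 also held 2 CCAAT matches, which are not in capitals above. The AP-1 motif TGANTCA, present in 6.34% of windows, was not among the letters of any of the 3 windows. These matches describe letters in the reference only, since binding was not measured.

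Library totals lay between 10160424 and 16297870 counts, and summed totals per rat between 41213813 and 64081679. Libraries of the same rat agreed within sampling noise, with a chi-square per degree of freedom of 1.004 to 1.02 over genes, and were summed and counted as 1 sample. For the 4 peptide genes the median coefficient of variation between a rat's libraries was 1.62%, and the highest was 7.07%, for Cartpt in Non Vulnerable rat 3. Penk in Saline rat 3 varied more than sampling noise, with a chi-square per degree of freedom of 4.93. Its coefficient of variation was 2.67%, beside 1.2% expected from counting. Counts per rat ran from 18087 to 52010 for Penk, from 6104 to 21175 for Pdyn, from 3134 to 13651 for Tac1 and from 1270 to 5687 for Cartpt, so counting error was small beside the differences between rats. On the first principal component of all genes tested, Non Vulnerable rats 2 and 3 scored 46.9 and 58.5, whereas Non Vulnerable rat 1 scored 7.51 and lay nearest the Saline rats (-10 to -7.3), with the Vulnerable rats at -34.2 to -21.7. Results that rest on Non Vulnerable rat 1 are therefore given with and without it.

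None of the 4 genes was called between any of the groups by edgeR's quasi-likelihood test over all 9 rats, though other tools called some of them, as given further on, while all of them differed widely between rats of the same cocaine group. Levels are CPM, counts scaled to a common total on TMM-adjusted library sizes, which are not divided by transcript length, so they are compared between rats and not between genes. The tissue was sampled in bulk, where fewer cells of a type and less mRNA per cell cannot be told apart.

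Penk, the precursor of the enkephalins, was counted at 548, 1020 and 756 CPM in Vulnerable rats 1 to 3. In Non Vulnerable rats 1 to 3 it stood at 980, 543 and 448 CPM. Saline rats 1 to 3 had 637, 695 and 597 CPM. The Saline rats were close together, and each cocaine group held a rat above all of them (Vulnerable rat 2 and Non Vulnerable rat 1) and a rat below all of them. The group means were 775 ± 237 CPM in Vulnerable, 657 ± 284 in Non Vulnerable and 643 ± 49.3 in Saline rats (SD, n = 3 each), and the ranges of all 3 groups overlapped. The log2 fold change of Vulnerable against Non Vulnerable rats was 0.24 (SE 0.302, 95% interval -0.499 to 0.978, edgeR quasi-likelihood adjusted p = 0.565).

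Pdyn, the precursor of the dynorphins, was counted at 224, 416 and 301 CPM in Vulnerable rats 1 to 3. In Non Vulnerable rats it stood at 345, 207 and 151 CPM. Saline rats had 233, 235 and 289 CPM. The same rats were at the ends of the range as for Penk, with Vulnerable rat 2 highest, Non Vulnerable rat 1 next and Non Vulnerable rat 3 lowest. Means were 314 ± 96.5 CPM in Vulnerable, 234 ± 99.8 in Non Vulnerable and 252 ± 31.5 in Saline rats (SD, n = 3 each). The log2 fold change of Vulnerable against Non Vulnerable rats was 0.42 (SE 0.305, 95% interval -0.327 to 1.17, edgeR adjusted p = 0.313), and the groups overlapped.

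Tac1, the precursor of substance P and neurokinin A, was counted at 148, 268 and 193 CPM in Vulnerable rats 1 to 3. In Non Vulnerable rats it stood at 156, 101 and 77.5 CPM. Saline rats had 112, 109 and 198 CPM. Non Vulnerable rat 1 lay just above the lowest Vulnerable rat, which is all that made those 2 groups overlap, and Saline rat 3 stood well above the other Saline rats. Means were 203 ± 60.7 CPM in Vulnerable, 111 ± 40.1 in Non Vulnerable and 139 ± 50.9 in Saline rats (SD, n = 3 each). The log2 fold change of Vulnerable against Non Vulnerable rats, 0.87 (SE 0.33, 95% interval 0.0602 to 1.68), was the largest of the 4, and it missed the threshold after adjustment over all genes (edgeR p = 0.0276, adjusted p = 0.0732).

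Cartpt, the precursor of the CART peptides, was counted at 68.4, 112 and 80.2 CPM in Vulnerable rats 1 to 3. In Non Vulnerable rats it stood at 89.5, 43.1 and 31.4 CPM. Saline rats had 56.1, 66.1 and 91.5 CPM. Non Vulnerable rats 2 and 3 were below every other rat, while Non Vulnerable rat 1 was above 2 of the Vulnerable rats. Means were 86.8 ± 22.4 CPM in Vulnerable, 54.7 ± 30.7 in Non Vulnerable and 71.3 ± 18.2 in Saline rats (SD, n = 3 each). The log2 fold change of Vulnerable against Non Vulnerable rats was 0.67 (SE 0.367, 95% interval -0.233 to 1.56, edgeR adjusted p = 0.189).

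**Figure D1:**
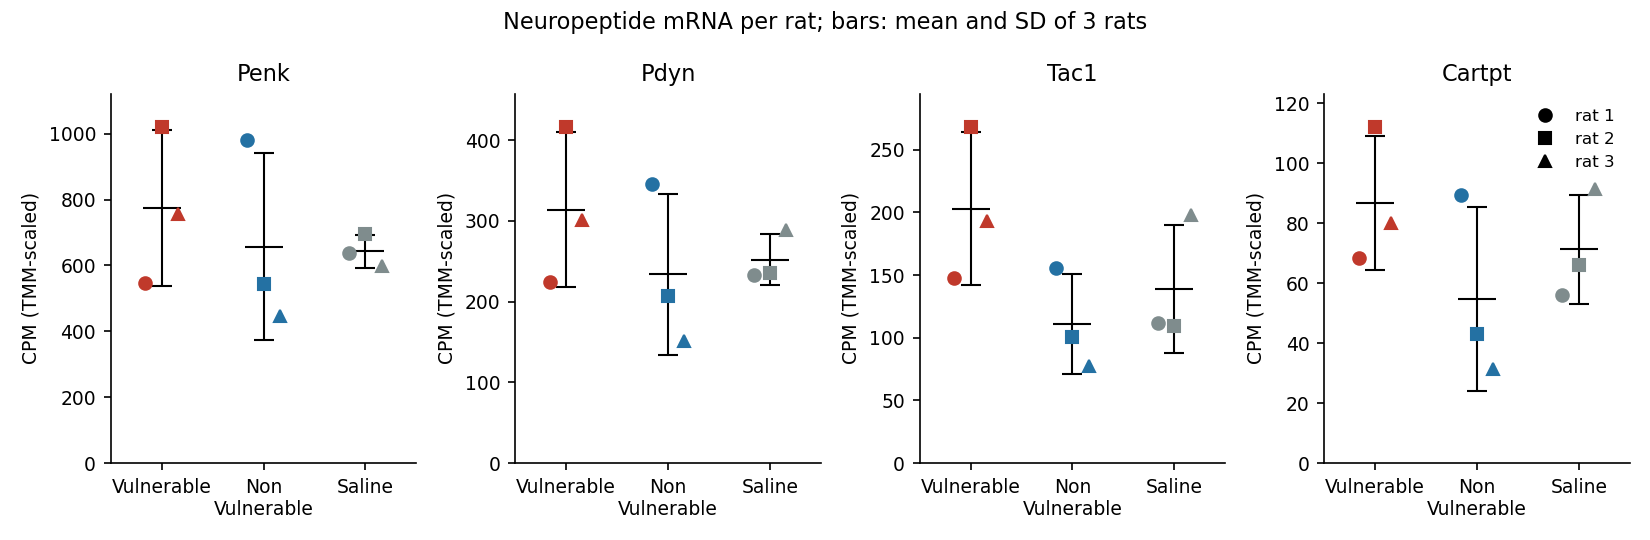
Level of each neuropeptide gene in every rat, in CPM on TMM-scaled library sizes (vertical axis from 0), by group. Points are rats, the wide dash is the mean and the whiskers are the SD of 3 rats; Vulnerable rat 2 is the highest point in each panel and Non Vulnerable rat 3 the lowest.

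For Vulnerable against Non Vulnerable rats, 0 of 4 peptide genes were called by edgeR (adjusted p under 0.05), and 1 of 4, Tac1, had an unadjusted p under 0.05. Over all genes tested, 31.5% (5050 of 16029) were called in this comparison and 7255 had an unadjusted p under 0.05. All 4 log2 fold changes were above 0, with a median of 0.543, beside a median of -0.0351 over all genes, of which 46.9% were above 0. The size of the Tac1 difference was exceeded by 11.1% of genes, that of Cartpt by 18.8%, that of Pdyn by 37.3% and that of Penk by 60.3%. The ranges of the 2 groups overlapped for all 4 genes, whereas they did not overlap for 46.7% of all genes tested.

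In Non Vulnerable against Saline rats the log2 fold changes were 0.03 for Penk (edgeR adjusted p = 0.957), -0.11 for Pdyn (adjusted p = 0.84), -0.33 for Tac1 (adjusted p = 0.53) and -0.38 for Cartpt (adjusted p = 0.507). Their 95% intervals all included 0, and the widest, that of Cartpt, ran from -1.28 to 0.516. No peptide gene was called and 0 of 4 had an unadjusted p under 0.05, where 14.7% of all genes were called (2351) and 5244 had such a p. Their median was -0.216, beside 0.021 over all genes. The ranges overlapped for all 4, and did not overlap for 35% of all genes.

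In Vulnerable against Saline rats the log2 fold changes were 0.27 for Penk (edgeR adjusted p = 0.918), 0.31 for Pdyn (adjusted p = 0.918), 0.54 for Tac1 (adjusted p = 0.897) and 0.28 for Cartpt (adjusted p = 0.928). All 95% intervals included 0, that of Tac1 from -0.261 to 1.35 and that of Penk from -0.469 to 1.01. The median was 0.299, beside 4e-04 over all genes. edgeR called 0% of genes here, neither a peptide gene nor any other. An unadjusted p under 0.05 was found for 807 genes, with none of the 4 among them. DESeq2 called 30 genes, limma voom 0, and limma voom with sample quality weights 4 genes. The ranges overlapped for all 4, and did not overlap for 11.9% of all genes. The comparisons share groups, so their values are not separate pieces of evidence. The test for any difference among the 3 groups gave adjusted p-values of 0.744 for Penk, 0.542 for Pdyn, 0.166 for Tac1 and 0.396 for Cartpt with edgeR, where 21.3% of all genes were called.

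Among rats left out singly, Non Vulnerable rat 1 changed the edgeR calls for Vulnerable against Non Vulnerable rats most. Its levels of all 4 genes were the highest of its group. Leaving out the highest rat of the lower group has to raise the 4 differences, so that direction was fixed in advance. Without this rat the log2 fold changes were 1.24 for Cartpt (edgeR adjusted p = 0.0112), 1.21 for Tac1 (adjusted p = 0.0253), 0.82 for Pdyn (adjusted p = 0.0384) and 0.66 for Penk (adjusted p = 0.0574). Thus 3 of 4 peptide genes were called, where 36% of all genes were called without this rat. In Non Vulnerable against Saline rats, Cartpt alone of the 4 was then called, with a log2 fold change of -0.95 (adjusted p = 0.0415) where 22.3% of all genes were called. The Non Vulnerable group then holds 2 rats, which are assumed to vary like the other groups.

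**Figure D2:**
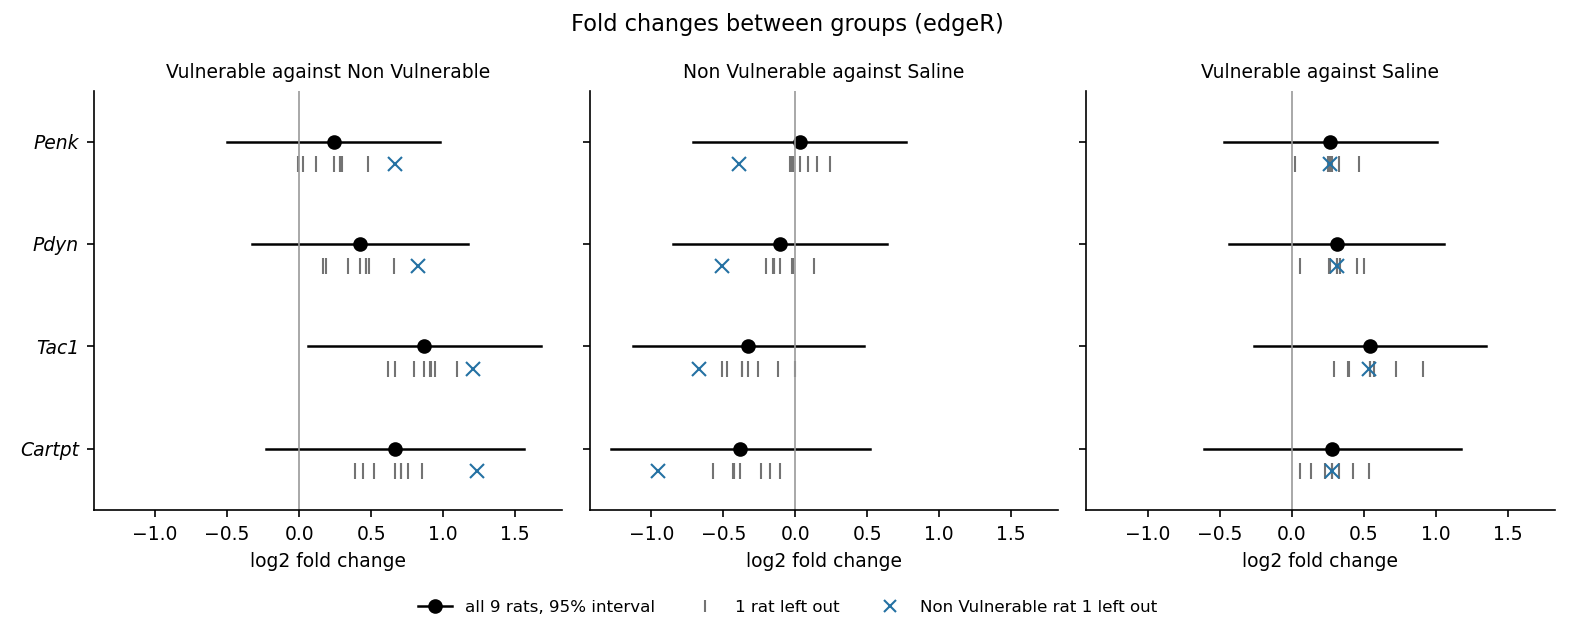
Log2 fold change of each gene (horizontal axis) in the 3 comparisons. Dots and lines are the edgeR estimate and 95% interval over all 9 rats, grey ticks the estimates with 1 rat left out, and blue crosses those without Non Vulnerable rat 1, where Cartpt reached 1.24 and Tac1 1.21 in Vulnerable against Non Vulnerable rats.

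Other rats mattered for single genes. Leaving out Saline rat 3, whose Tac1 was the second highest of all 9 rats, brought Tac1 past the threshold in Vulnerable against Non Vulnerable rats in which the Saline rats enter the shared estimate of spread (log2 fold change 0.92, edgeR adjusted p = 0.0449, with 30.6% of all genes called). Without the same rat the Tac1 difference of Vulnerable against Saline rats moved from 0.54 to 0.92, with an adjusted p of 0.437. Without Vulnerable rat 2 the Penk difference of Vulnerable against Non Vulnerable rats fell to -0.01 and that of Tac1 to 0.62. The tool mattered as well. DESeq2 called Tac1 alone of the 4 in Vulnerable against Non Vulnerable rats (adjusted p = 0.0218), where it called 37.8% of all genes. limma voom with sample quality weights, which gives less weight to rats farther from their group, called all 4 there, where it called 57.8% of all genes, and called Cartpt in Non Vulnerable against Saline rats, where it called 43.8%.

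The 4 genes rose and fell in the same rats. Vulnerable rat 2 had the highest level of all 4 genes, Non Vulnerable rat 3 the lowest of all 4 and Non Vulnerable rat 2 the next lowest of all 4. Non Vulnerable rat 1 was the second highest for the opioid precursors Penk and Pdyn, the third for Cartpt and the fourth for Tac1. Saline rat 3 did not follow this order, being the second highest for Tac1 and Cartpt, the fourth for Pdyn and the sixth for Penk. Relative to a gene's mean over 9 rats on the log2 scale, Vulnerable rat 2 stood at 0.612 for Penk, 0.697 for Pdyn, 0.925 for Tac1 and 0.749 for Cartpt. Non Vulnerable rat 3 stood at -0.579, -0.764, -0.865 and -1.08 in the same order.

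**Figure D3:**
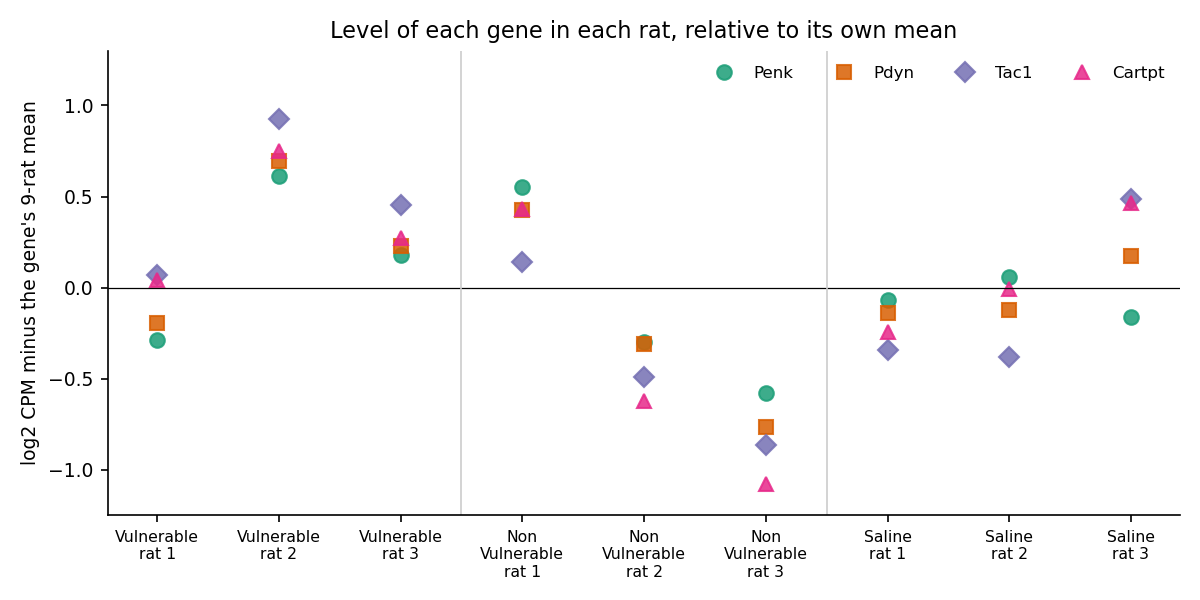
Level of the 4 genes in each rat (horizontal axis, by group) as log2 CPM minus the gene's mean over the 9 rats. The 4 symbols stay together within most rats, all above the mean in Vulnerable rat 2 and Non Vulnerable rat 1 and all below it in Non Vulnerable rats 2 and 3, and are most apart in Saline rat 3 and Non Vulnerable rat 3.

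The spread within groups was large for all 4 genes. The pooled within-group SD on the log2 scale was 0.432 for Penk, 0.444 for Pdyn, 0.477 for Tac1 and 0.535 for Cartpt, beside a median of 0.18 over all genes, and 9.76% to 15.5% of genes had a larger one. It was uneven between groups: for Penk it was 0.11 in Saline, 0.449 in Vulnerable and 0.589 in Non Vulnerable rats, and for Cartpt 0.359, 0.361 and 0.774. Tac1 was the exception, with 0.49 in Saline rats beside 0.43 and 0.507. The quasi-likelihood test assumes that a gene has the same spread in all 3 groups.

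Over the 9 rats, the log2 levels of the opioid precursors Penk and Pdyn were correlated with r = 0.925 (exact permutation p = 0.000416, Spearman rho = 0.95, exact p = 0.000353). The pair from D1 neurons, Pdyn and Tac1, had r = 0.908 (exact p = 0.00102, rho = 0.867, exact p = 0.00451). Cartpt had r = 0.948 with Pdyn (exact p = 0.000113, rho = 0.9, exact p = 0.00203) and 0.931 with Tac1 (exact p = 0.000198, rho = 0.967, exact p = 0.000165). Penk was less like the remaining genes, with r = 0.816 to Cartpt (exact p = 0.0078, rho = 0.75, exact p = 0.0255) and 0.711 to Tac1 (exact p = 0.0337, rho = 0.717, exact p = 0.0369). Adjusted over the 6 relations by Benjamini-Hochberg, the exact p-values of r lay between 0.000595 and 0.0337, and those of rho between 0.000992 and 0.0369. Taken as deviations from the group means, the r values were 0.716 to 0.958, and the lowest, that of Penk with Tac1, did not pass the threshold (exact permutation p = 0.0648).

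Leaving out the 2 rats farthest from the median of the gene on the horizontal axis lowered r in all 6 pairs. These were Vulnerable rat 2 and Non Vulnerable rat 1 for pairs with Penk, and Vulnerable rat 2 and Non Vulnerable rat 3 for the others. The pairs Penk and Pdyn (0.842), Pdyn and Cartpt (0.864) and Tac1 and Cartpt (0.86) stayed past the threshold over 7 rats. The relations of Penk with Tac1 (r = 0.596, exact permutation p = 0.155), Penk with Cartpt (0.739, exact p = 0.0591) and Pdyn with Tac1 (0.743, exact p = 0.0671) no longer passed it and rest on those rats.

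**Figure D4:**
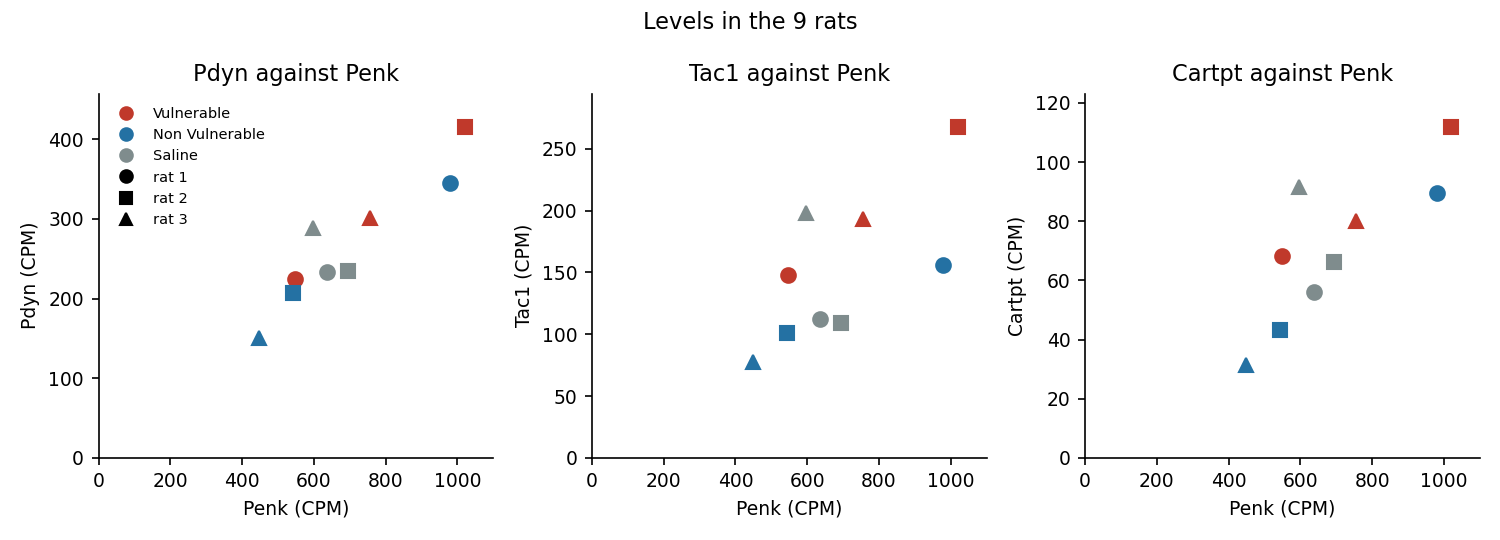
Levels of Pdyn, Tac1 and Cartpt (vertical axes, CPM) against that of Penk (horizontal axis, CPM) in the 9 rats, with colour for the group and shape for the rat number. The Vulnerable rats lie above the Non Vulnerable rats of similar Penk in the Tac1 and Cartpt panels: Vulnerable rat 1 and Non Vulnerable rat 2, at 548 and 543 CPM of Penk, had 148 and 101 CPM of Tac1.

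This likeness was shared with many other genes of the same rats. Among 13726 genes with a mean of at least 1 CPM, 75 had r over 0.9 with Penk, 143 with Pdyn, 139 with Tac1 and 193 with Cartpt, while the median r was -0.126 to -0.0464. By its likeness to Penk, Pdyn ranked 40th of these genes, Cartpt 290th and Tac1 693rd. By its likeness to Pdyn, Cartpt ranked 39th, Penk 79th and Tac1 116th, and by likeness to Tac1, Cartpt ranked 61st. Over deviations from the group means, which leave fewer degrees of freedom, the counts of genes with r over 0.9 were higher for each peptide gene. They were 365 for Penk, 324 for Pdyn, 147 for Tac1 and 236 for Cartpt. By this likeness to Penk, Pdyn ranked 232nd, Cartpt 662nd and Tac1 1340th. The highest r over all genes belonged to ENSRNOG00000019985 with Tac1 (0.993) and to ENSRNOG00000047476 with Pdyn (0.991), for which no gene name was matched. ENSRNOG00000019985 was counted at 70.1, 103 and 83.9 CPM in Vulnerable, 69.2, 54.6 and 46.1 in Non Vulnerable and 61.5, 59.8 and 87.4 in Saline rats 1 to 3. ENSRNOG00000047476 was counted at 194, 248 and 209 CPM in Vulnerable, 232, 176 and 154 in Non Vulnerable and 191, 193 and 209 in Saline rats.

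The balance between the genes within a rat was also compared. The ratio of 2 genes' counts in a rat does not depend on the scaling between libraries; it compares reads with reads, not molecules, and is used here only to compare rats. Relative to Penk, the precursor made in D2 neurons, Tac1, Pdyn and Cartpt were each higher in every Vulnerable rat than in every Non Vulnerable rat. Over all genes tested, 5.09% did not overlap between these groups when divided by Penk, a share that depends on the divisor, as given further on. The log2 ratios of the 6 pairs had SDs of 0.0659 to 0.202, pooled over these groups. The log2 levels of the single genes had SDs of 0.361 to 0.774, each taken within a group and not pooled.

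The ratio of Tac1 to Penk was 0.27, 0.262 and 0.256 in Vulnerable rats 1 to 3. It was 0.159, 0.185 and 0.173 in Non Vulnerable rats and 0.175, 0.156 and 0.332 in Saline rats. The 2 cocaine groups stood apart with little spread in either, Non Vulnerable rat 1 included, while Saline rats 1 and 2 were near the Non Vulnerable rats and Saline rat 3 was above all others. Means were 0.263 ± 0.00689 in Vulnerable, 0.172 ± 0.0133 in Non Vulnerable and 0.221 ± 0.0965 in Saline rats (SD, n = 3 each). The log2 difference of Vulnerable against Non Vulnerable rats was 0.61 (SE 0.0683), a 1.53-fold higher ratio, and it was 0.551 to 0.663 with any 1 rat of the 9 left out. The two-sided exact permutation p was 0.1, the smallest that 3 rats against 3 can give, and 0.36 after Benjamini-Hochberg adjustment over the 18 ratio comparisons, so no call is made.

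The ratio of Pdyn to Penk was 0.409, 0.407 and 0.399 in Vulnerable rats, against 0.352, 0.382 and 0.337 in Non Vulnerable and 0.366, 0.339 and 0.484 in Saline rats. The log2 difference of Vulnerable against Non Vulnerable rats was 0.18 (SE 0.0538). The ratio of Cartpt to Penk was 0.125, 0.109 and 0.106 in Vulnerable rats, against 0.0913, 0.0794 and 0.0702 in Non Vulnerable and 0.0881, 0.0952 and 0.153 in Saline rats. Here the log2 difference was 0.50 (SE 0.131), a 1.42-fold higher ratio. Saline rat 3 again had the highest value of all 9 rats for both ratios. Each of these differences had an exact permutation p of 0.1, adjusted 0.36.

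Among the genes other than Penk, the ratio of Tac1 to Pdyn, both made in D1 neurons, was 0.66, 0.645 and 0.642 in Vulnerable rats. It was 0.451, 0.485 and 0.513 in Non Vulnerable and 0.478, 0.461 and 0.686 in Saline rats. The log2 difference of Vulnerable against Non Vulnerable rats was 0.43 (SE 0.0555), a 1.34-fold higher ratio, with no overlap between the cocaine groups. For Cartpt to Pdyn the values were 0.305, 0.269 and 0.266 in Vulnerable, 0.259, 0.208 and 0.208 in Non Vulnerable and 0.241, 0.281 and 0.317 in Saline rats. The log2 difference was 0.32 (SE 0.124), with a narrow gap between Vulnerable rat 3 and Non Vulnerable rat 1. Both differences had an exact permutation p of 0.1, adjusted 0.36, and 6.46% of all genes did not overlap when divided by Pdyn. For Cartpt to Tac1 the cocaine groups overlapped, at 0.462, 0.417 and 0.415 against 0.575, 0.428 and 0.405, with a log2 difference of -0.11 (SE 0.165, exact permutation p = 0.7).

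**Figure D5:**
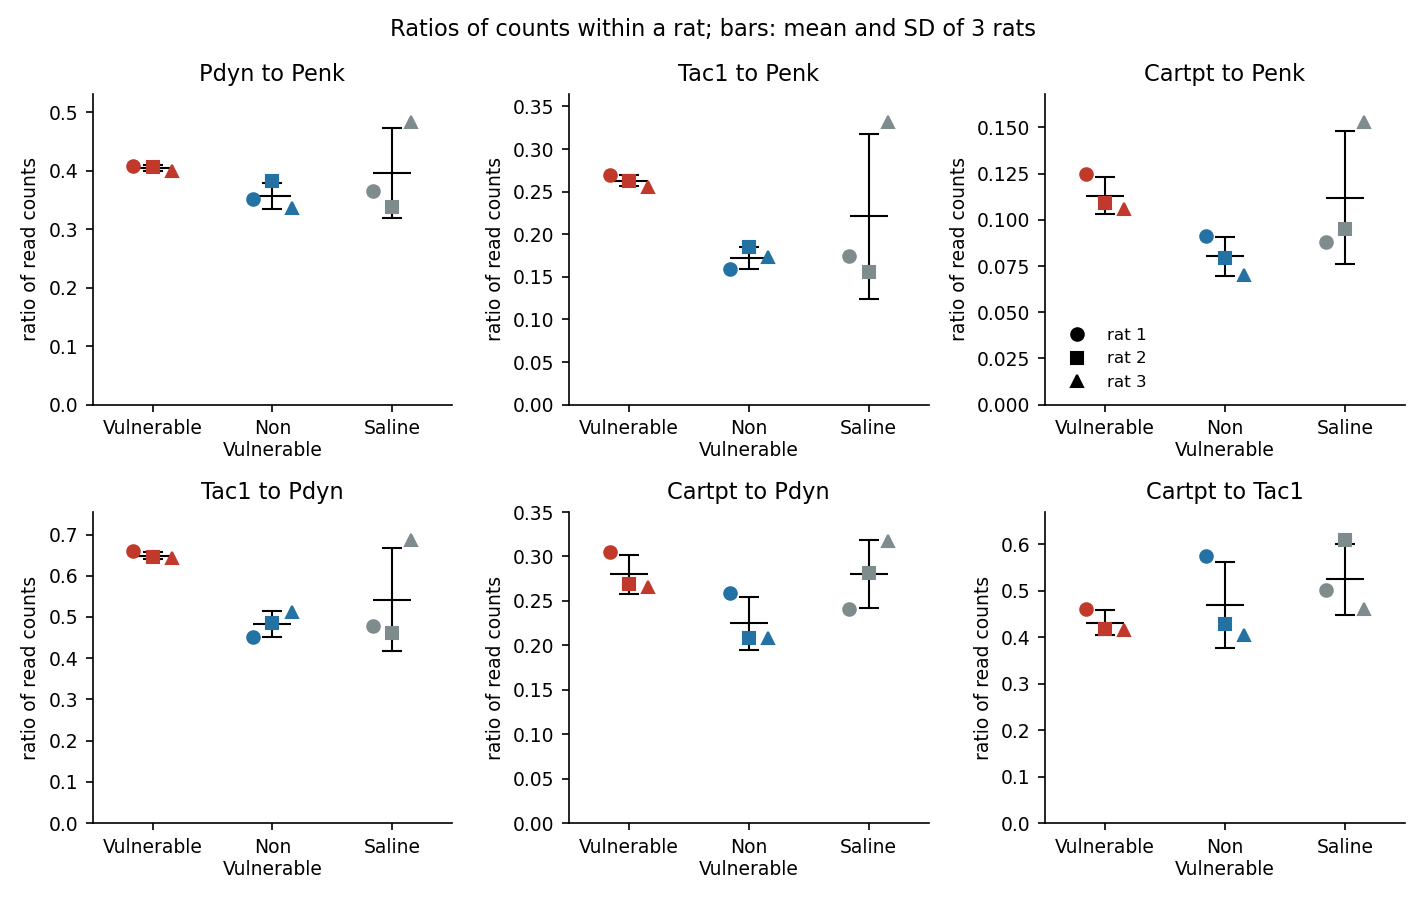
Ratio of read counts within each rat for the 6 pairs of genes (vertical axes from 0), by group. Points are rats, the wide dash is the mean and the whiskers are the SD of 3 rats; Vulnerable and Non Vulnerable rats do not overlap except for Cartpt to Tac1, and Saline rat 3 lies above all other rats for Tac1, Pdyn and Cartpt to Penk.

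Vulnerable and Non Vulnerable rats thus did not overlap in 5 of the 6 ratios, which share genes and are not independent of each other. When each gene tested was divided by Penk in the same way, 5.09% of them (816 of 16028) did not overlap between these groups, beside 3 of 3 peptide genes. With Pdyn as the divisor the share just given stands beside 2 of 2, and with Tac1 it was 42.1%, beside 0 of 1. Each ratio was counted in a single direction, although a ratio and its inverse overlap alike. Penk and Pdyn divided by Tac1 therefore did not overlap either, where the share over all genes was 42.1%. How rare such a separation is thus depends on the divisor. A gene that does not vary with the divisor keeps the divisor's spread between rats in its ratio. Against Saline rats 0 of 6 ratios were free of overlap in either cocaine group. The shares over all genes were there 5.85% (Penk), 3.11% (Pdyn) and 2.81% (Tac1) for Non Vulnerable rats, and 3.64%, 4.55% and 5.9% for Vulnerable rats. Without Saline rat 3, the Tac1 to Penk difference of Vulnerable against Saline rats went from 0.332 to 0.667, and that of Non Vulnerable against Saline rats from -0.278 to 0.0575.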

How the data were processed

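Per the labels' protocols, libraries were strand-specific and made from oligo(dT)-purified messenger RNA. The tools named are bcl2fastq 2.17.1.14, STAR and HTSeq 0.5.3, per the submitters' processing notes. The build, the annotation and the strand setting are not given, and the counts of overlapping or antisense genes depend on them. Raw read counts, 1 table per library with Ensembl gene IDs as rows, are what the authors deposited, with 0 value columns of other samples.

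The 4 libraries of each rat were summed. In edgeR 4.0.16 (R 4.3.3), filterByExpr kept 16029 genes, TMM scaled the libraries and glmQLFit, with robust set, was run over all 9 rats (6 residual degrees of freedom, a mean for each group). Benjamini-Hochberg adjustment covered all genes tested, with calls at an adjusted p under 0.05. SEs came from the F statistic and 95% intervals from the 6 residual degrees of freedom alone, which makes them wider than the moderated test would. The procedure was tested on simulated data. log2 CPM used a prior count of 2. Ratios and correlations used exact two-sided permutation tests. The labels number the rats within a group and do not say whether litters, cages or runs were shared. The p-values set differences against the variation between these animals only. Alternatives were median-of-ratios scaling, no filter, DESeq2 1.42.0, limma 3.58.1 voom with and without quality weights, only the compared groups, scaling without the 10 most counted genes, the rat number as a block, and each rat left out. Intervals cover the spread between rats; whether PCR duplicates were removed is not stated.

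The genes and lists were chosen with earlier results of these data known. Named genes are the 4 peptide genes and, for the 2 with the highest r, the gene of closest pattern. The 14 lists fixed for projection neuron types, peptide processing, receptors, other peptides, regulators and other cell types (119 genes) could not be used, because 0 of their genes matched an ID in the reference tables, so the tissue was not checked against marker genes. Coordinates are those of the RefSeq promoter table (GRCr8); Penk has no printed sequence.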

Additional observations from a re-analysis of the deposited data

Results flagged for a closer look

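In 3 within-rat ratios every Vulnerable rat lay above the Saline mean and every Non Vulnerable rat below it. The reference was the geometric mean of the Saline rats. The ratios were picked by this same rule from the peptide genes and their ratios. The share of all genes that meet it was not computed. For Tac1 to Penk the log2 difference of Vulnerable against Non Vulnerable rats was 0.609, around a Saline mean ratio of 0.208. For Tac1 to Pdyn it was 0.427, around 0.533, and for Pdyn to Penk it was 0.182, around 0.392. The 3 ratios share genes, and an exact permutation test of the difference between 3 rats and 3 cannot give a p below 0.1. The pattern rests on Saline rat 3, which had ratios of 0.332, 0.686 and 0.484 in the same order. Without it the log2 difference of Non Vulnerable against Saline rats was above 0 for all 3, at 0.0575, 0.0386 and 0.0189, so the Non Vulnerable rats no longer all lay below.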

How the results depend on the processing

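Of 96 values of the 4 genes under alternatives that kept all rats, 87 kept their direction and side of the threshold, 6 passed it and 3 changed sign; with 1 rat left out the counts were 96, 5 and 7 of 108. limma voom with sample quality weights gave log2 fold changes for Vulnerable against Non Vulnerable rats of 0.483 for Penk (adjusted p = 0.0266), 0.586 for Pdyn (0.0132), 0.988 for Tac1 (0.0017) and 0.94 for Cartpt (0.00236), and -0.612 for Cartpt in Non Vulnerable against Saline rats (0.0358). DESeq2 gave 0.895 for Tac1 (adjusted p = 0.0218) in Vulnerable against Non Vulnerable rats. The Penk difference of Non Vulnerable against Saline rats, near 0, turned to -0.0562 with limma voom, -0.288 with quality weights and -0.013 without the 10 most counted genes in the scaling. The cause of these changes was not tested.

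With 1 rat left out, log2 fold changes of Vulnerable against Non Vulnerable rats ranged from -0.00988 to 0.664 for Penk (adjusted p 0.0574 to 0.985), 0.164 to 0.825 for Pdyn (0.0384 to 0.726), 0.618 to 1.21 for Tac1 (0.0253 to 0.218) and 0.388 to 1.24 for Cartpt (0.0112 to 0.443). Those of Non Vulnerable against Saline rats ranged from -0.395 to 0.244 for Penk, -0.513 to 0.13 for Pdyn, -0.666 to -0.000413 for Tac1 and -0.954 to -0.105 for Cartpt. No peptide gene was called in Vulnerable against Saline rats under any alternative run.

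Calls over all genes ranged from 2798 (without Non Vulnerable rat 2) to 9269 (quality weights) for Vulnerable against Non Vulnerable rats, and from 251 (without Saline rat 2) to 7027 (quality weights) for Non Vulnerable against Saline rats. For Vulnerable against Saline rats they ranged from 0 to 30 (DESeq2).

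The labels do not say whether rats of the same number share more than that number. The correlations of their deviations were 0.19, -0.123 and 0.105 for Vulnerable and Non Vulnerable rats. Of 18 best matches, 6 had the same number. With 3 rats a group these values cannot settle whether anything was shared. The replicate block gave log2 fold changes of 0.27 for Penk (adjusted p = 0.544), 0.439 for Pdyn (0.357), 0.857 for Tac1 (0.127) and 0.707 for Cartpt (0.233) in Vulnerable against Non Vulnerable rats, and changed no call of a peptide gene. It called 5160 genes there, 2453 for Non Vulnerable against Saline rats and 0 for Vulnerable against Saline rats.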
